A study of Mus musculus with 14 samples.

Results

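The genes described here are 31 genes of sterol and fatty acid synthesis, with the factors that control them and the sterol exporters, measured in mouse CD8+ effector T cells. They were taken by symbol from a list, which was chosen with earlier results of these data known: 17 cholesterol synthesis enzymes (Acat2, Hmgcs1, Mvk, Pmvk, Mvd, Idi1, Fdps, Fdft1, Sqle, Lss, Cyp51, Tm7sf2, Nsdhl, Hsd17b7, Ebp, Sc5d and Dhcr7), 5 sterol-regulated factors and sensors (Srebf1, Srebf2, Scap, Insig1 and Insig2), 6 fatty acid synthesis genes (Acly, Acaca, Fasn, Scd1, Scd2 and Elovl6) and 3 genes of sterol transfer and export (Stard4, Abca1 and Abcg1). A probe set naming a single gene was found for 30 of the 31; none carried the name Acat2. Scd1 lay between 3.97 and 5.38 on the log2 scale and did not pass the filter on low signal, so 29 genes were tested among 14438 tested in all. The samples were OT-I cells, which carry a T cell receptor for an ovalbumin peptide. Donor cells from fetal liver chimeras of strain C57BL/6J were placed in congenic recipients that were infected with Listeria expressing ovalbumin, and the cells were sorted on day 6. Every group therefore shares the receptor, the infection and the transfer. The 14 arrays fall into 5 groups: 3 of wild-type (WT) KLRG1hi cells, 5 of WT KLRG1lo cells, 2 of Id2KO KLRG1lo cells, 2 of BimKO KLRG1lo cells and 2 of Id2KOBimKO KLRG1lo cells. The labels do not say how many animals stand behind an array, nor whether a deletion was limited to T cells, and p-values here may reflect technical as well as biological variation between arrays.

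Cholesterol is built from acetyl-CoA through mevalonate, isoprenoids, squalene and lanosterol, and fatty acids from the same acetyl-CoA through malonyl-CoA. Srebf1 and Srebf2 encode the SREBP transcription factors, which are held in the endoplasmic reticulum with the escort protein SCAP while INSIG proteins retain SCAP, and which move to the Golgi for cleavage when membrane sterol falls. Abca1 and Abcg1 export cholesterol and are targets of the oxysterol receptors LXR; T cells that divide after activation are known to raise synthesis through SREBP. KLRG1 marks effector cells that are mostly short-lived, Id2 encodes an inhibitor of E protein transcription factors, and Bim, encoded by Bcl2l11, is a protein that promotes cell death.

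Upstream sequences of 3 cholesterol synthesis enzymes are printed because these genes carry the values on which the description below turns. Hmgcs1 had the largest change per unit of array spread, and Ebp and Idi1 had the largest differences, of opposite sign, both between the WT sorts and between Id2KO and WT cells. The sequences are RefSeq's for GRCm38.p6 and cover the 250 bases before the start of transcription, written 5′ to 3′ on the gene's strand. Capitals mark matches, on either strand, to CCAAT, which in all matches shown lies on the opposite strand and so reads ATTGG here, and to TCACNCCAC, a form of sterol regulatory element; these motifs do not overlap in the sequences shown. Hmgcs1 lies at chr13:119690101-119690350 on the + strand, Idi1 at chr13:8885356-8885605 on the + strand and Ebp at chrX:8193513-8193762 on the - strand.
Hmgcs1: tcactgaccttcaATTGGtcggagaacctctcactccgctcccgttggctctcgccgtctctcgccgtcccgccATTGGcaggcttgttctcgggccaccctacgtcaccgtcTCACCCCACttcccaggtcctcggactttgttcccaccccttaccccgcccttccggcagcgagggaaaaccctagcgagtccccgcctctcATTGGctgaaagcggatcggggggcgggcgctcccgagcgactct
Idi1: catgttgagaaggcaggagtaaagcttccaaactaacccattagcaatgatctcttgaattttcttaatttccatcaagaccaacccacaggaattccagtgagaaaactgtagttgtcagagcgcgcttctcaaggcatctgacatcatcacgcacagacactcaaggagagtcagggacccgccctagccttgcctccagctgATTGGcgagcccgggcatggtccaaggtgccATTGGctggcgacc
Ebp: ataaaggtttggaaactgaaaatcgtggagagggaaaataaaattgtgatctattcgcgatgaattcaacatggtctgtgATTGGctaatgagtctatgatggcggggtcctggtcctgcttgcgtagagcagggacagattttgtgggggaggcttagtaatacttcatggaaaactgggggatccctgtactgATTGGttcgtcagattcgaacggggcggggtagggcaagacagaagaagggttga
Hmgcs1 held 1 TCACNCCAC match, which begins 137 bases before the start, and 3 CCAAT matches. Idi1 and Ebp each held 2 CCAAT matches in the stretch shown. RefSeq promoters, searched over 250 bases before and 50 after the start, were matched for 24 of the 31 genes. CCAAT was present on either strand in 19 of these 24 (79.2%), and in 41.1% of all 27025 genes with a promoter in the table. TCACNCCAC was present in 1 of the 24 and in 1.44% of all. A match describes the letters and says nothing of binding.

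The sort and the Id2 label were visible on the arrays. Klrg1 averaged 11.04 ± 0.50 (SD, n = 3) on the log2 scale in WT KLRG1hi cells and 6.27 ± 0.29 (n = 5) in WT KLRG1lo cells, and Id2 averaged 9.80 ± 0.10 (n = 2) in Id2KO cells, 9.74 ± 0.14 (n = 2) in Id2KOBimKO cells and 10.93 ± 0.20 (n = 5) in WT KLRG1lo cells. Bcl2l11 was at 7.51 ± 0.21 (n = 2) in BimKO cells and 7.60 ± 0.19 (n = 5) in WT KLRG1lo cells, and whether its probe set covers the deleted part was not tested. Cd8a, Cd8b1, Cd3d, Cd3e and Cd3g were at least 9.18 on all 14 arrays. The Id2KO arrays stood apart in sex-linked transcripts: Xist averaged 4.73 there against 8.90 to 10.11 in the other groups, and the Y-linked Eif2s3y averaged 7.79 against 3.04 to 3.45. Sex and Id2 genotype cannot be told apart in Id2KO against WT cells, nor sex and Bim genotype in Id2KOBimKO against Id2KO cells, and the mean effect of Id2 loss and the interaction include the same arrays. The MHC class II gene H2-Aa was at least 6.69 on 5 arrays (WT KLRG1lo arrays 3, 4 and 5, BimKO array 2 and Id2KOBimKO array 2) and at most 4.93 on the other 9. The summed linear signal of 6 measured B cell markers ranged from 263 to 1053 in WT KLRG1lo cells and from 193 to 266 in WT KLRG1hi, 237 to 285 in Id2KO, 242 to 1140 in BimKO and 337 to 647 in Id2KOBimKO cells. The 2 measured red cell precursor markers summed to 89.8 to 491 in WT KLRG1lo, 102 to 118 in WT KLRG1hi, 93.3 to 105 in Id2KO, 112 to 231 in BimKO and 109 to 626 in Id2KOBimKO cells. The 8 monocyte and macrophage markers summed to 862 to 1308 in WT KLRG1lo, 840 to 900.3 in WT KLRG1hi, 960.1 to 1080.2 in Id2KO, 811 to 1147 in BimKO and 920.3 to 979 in Id2KOBimKO cells. The 6 neutrophil markers summed to 219 to 516 in WT KLRG1lo and 214 to 276 in KLRG1hi cells, the 5 dendritic cell markers, which include Itgax, to 1057 to 1360 and 1326 to 2437, and the 4 platelet markers to 141 to 216 and 147 to 188. Adgre1, Ly6g, Clec9a, Pf4 and Ppbp did not exceed the median of the unnamed probe sets on any array. On the 5 arrays with high H2-Aa signal the B cell sum was at least 647, against at most 337 elsewhere. Their red cell precursor sum was at least 209, against at most 118. Lyz2 was at least 6.71 there and at most 5.63 elsewhere, Mpeg1 5.35 and 4.74, and Csf1r 6.10 and 5.83. Cd68, Adgre1, Cd14, Fcgr3 and Ctss overlapped between these arrays and the others. Ctss and Cd68, at least 8.45 and 7.17 on all 14 arrays, weigh heavily in the monocyte and macrophage sums. The part of such signal in the results below was not tested. In a bulk sample, fewer cells of a type and less RNA per cell cannot be told apart.

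None of the 29 genes passed an adjusted p of 0.05 in any of the 8 comparisons made with limma over all genes. In WT cells, KLRG1hi against KLRG1lo, 0 of 29 passed where 0.942% of all genes did, and 2 of 29 had an unadjusted p under 0.05 where 7.2% of all genes did. In Id2KO against WT KLRG1lo cells, 0 passed (background 0.111%), with 3 at an unadjusted p under 0.05 (background 18.1%). In Id2KOBimKO against BimKO cells, 0 passed (background 0%), with 1 unadjusted (background 1.81%). The mean effect of Id2 loss over both Bim backgrounds gave 0 (background 0.18%), with 2 unadjusted (background 7.11%). BimKO against WT gave 0 (background 0%), with 1 unadjusted (background 6.91%). Id2KOBimKO against Id2KO gave 0 (background 0.0277%), with 2 unadjusted (background 0.803%), and Id2KOBimKO against WT gave 0 (background 0.0623%), with 0 unadjusted (background 3.95%). The interaction of Id2 and Bim gave 0 (background 0.0277%), with 2 unadjusted (background 4.27%). The comparisons with WT KLRG1lo cells share those 5 arrays, and the pairs that share a knockout group share its arrays too.

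These counts have limits set by the number of arrays. The 95% confidence interval of a gene's difference, not adjusted for the number of genes, extended 0.38 log2 units to each side at the median for KLRG1hi against KLRG1lo, 0.43 for Id2KO against WT and 0.52 for Id2KOBimKO against BimKO. The smallest difference that passed for any gene was 0.56 for KLRG1hi against KLRG1lo and 1.05 for Id2KO against WT. No smaller difference passed for any gene in these comparisons, and a difference that missed the threshold is not shown to be absent.

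**Figure D1:**
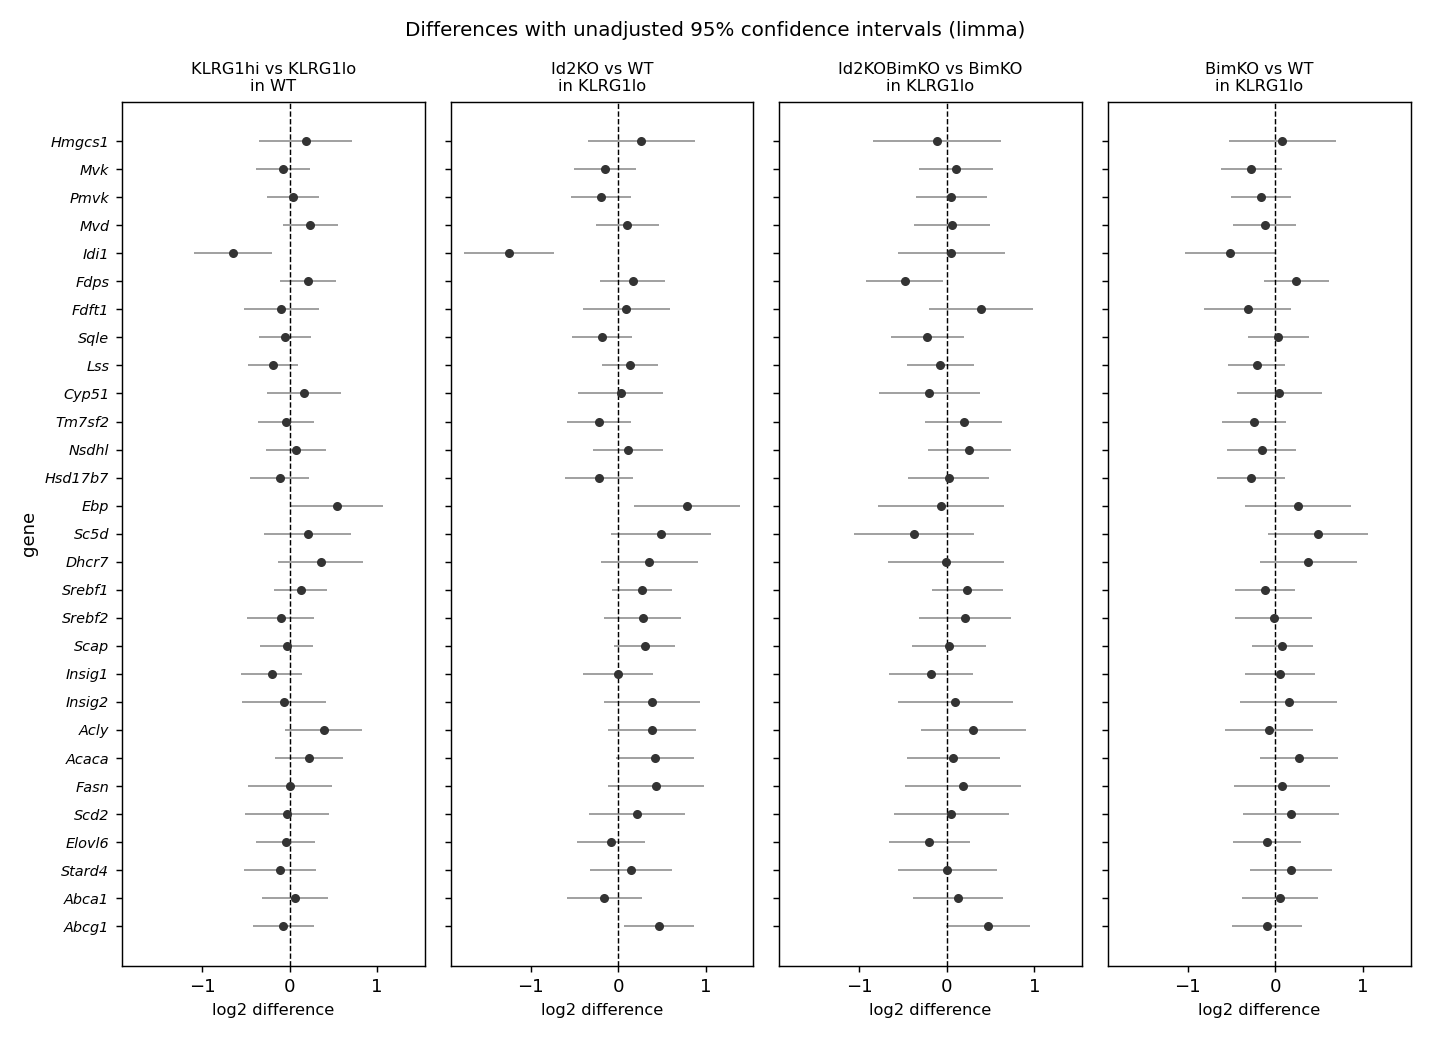
Log2 differences (points) and unadjusted 95% confidence intervals (lines) of the 29 tested genes in 4 comparisons; the dashed line marks 0 and positive values are higher in the group named first. Most intervals cross 0, and Idi1 lies farthest from 0 in the first 2 panels, at -0.65 and -1.24.

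The cholesterol synthesis enzymes did not move together between groups. In KLRG1hi against KLRG1lo cells, 9 of the 16 tested were higher and 7 lower by point estimate, with a median of 0.06 against 0.0017 over all genes, and in Id2KO against WT cells 10 were higher and 6 lower, with a median of 0.10 against 0.03. In Id2KOBimKO against BimKO cells the split was 8 and 8, and in BimKO against WT 7 and 9. The sign of many differences depended on the setting. Without the 5 arrays with high H2-Aa signal, which leaves 2 WT KLRG1lo arrays and 1 array each of BimKO and Id2KOBimKO cells, the sign turned for 11 of all 29 lipid genes in KLRG1hi against KLRG1lo, 14 in Id2KO against WT, 8 in Id2KOBimKO against BimKO and 13 in BimKO against WT. With array spread as a covariate it turned for 1, 14, 5 and 3 of the 29, and after quantile normalization for 0, 1, 0 and 4.

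Idi1, which converts isopentenyl diphosphate into dimethylallyl diphosphate, had the smallest p in 5 of the 8 comparisons. Its log2 signal was 7.02, 6.53 and 6.60 on the WT KLRG1hi arrays and 7.09, 7.06, 7.52, 7.95 and 7.20 on the WT KLRG1lo arrays. It was 6.48 and 5.76 on the Id2KO arrays, 6.87 and 6.82 on the BimKO arrays and 7.07 and 6.73 on the Id2KOBimKO arrays. The WT KLRG1lo arrays lay above every KLRG1hi, Id2KO and BimKO array, and Id2KO array 2 was the lowest of all 14. Idi1 was the only 1 of the 29 genes whose arrays did not overlap between KLRG1hi and KLRG1lo cells, where 4.18% of all genes did not overlap. For Id2KO and BimKO against WT the shares of all genes were 28.5% and 12.6%. The difference was -0.65 (SE 0.21, 95% interval -1.09 to -0.20, limma adjusted p = 0.287) for KLRG1hi against KLRG1lo and -1.24 (SE 0.24, interval -1.76 to -0.73, adjusted p = 0.0663) for Id2KO against WT. For BimKO against WT it was -0.52 (SE 0.24, adjusted p = 0.657), with the same 5 WT arrays. In Bim-deficient cells, Id2 loss gave 0.05, and the interaction of Id2 and Bim was 1.30 (SE 0.38, interval 0.50 to 2.10, adjusted p = 0.726). Without the 5 arrays with high H2-Aa signal the differences were -0.36 for KLRG1hi against KLRG1lo and -0.20 for BimKO against WT. That for Id2KO against WT was -0.95 there, and the interaction was 1.15. The Id2KO difference was -0.89 with array spread as a covariate and -1.28 after quantile normalization.

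The value for Idi1 differed between settings and between probe sets. Within the 6 arrays whose unnamed probe sets had a median of 5.01 to 5.07, Idi1 differed by -0.59 between Id2KO and WT, and within the 8 arrays at 5.16 to 5.39 by -1.80. Each of these array sets holds 1 Id2KO array, so these are values with no replicate check. The sets were cut at the largest gap in this median, from the arrays' own signal, and no label names them. Both BimKO arrays lie in the second set. The WT KLRG1lo arrays divide 2 and 3 between the sets, and the Id2KOBimKO arrays 1 and 1. BimKO against WT and Id2KOBimKO against BimKO are thus unbalanced over the sets, and the part of this in their differences was not tested. The WT KLRG1lo arrays of the second set are arrays 3 to 5, which also have the high H2-Aa signal. The adjusted p fell under 0.05 when WT KLRG1lo array 2 was left out (0.0278), when WT KLRG1hi array 1 or 3 was left out of the shared estimate of spread (0.0365 and 0.0319), and with a robust fit and a variance trend (0.0491). A further Idi1 probe set, with lower signal, read 6.60, 6.97 and 6.40 in KLRG1hi cells, 6.77, 6.92, 5.56, 6.09 and 5.49 in WT KLRG1lo cells and 6.46 and 6.33 in Id2KO cells. On that probe set WT KLRG1lo arrays 3 to 5 were the lowest of their group, where they were the highest on the first. Its differences were 0.49 (SE 0.28, adjusted p = 0.858) for KLRG1hi against KLRG1lo and 0.23 (SE 0.32, adjusted p = 0.609) for Id2KO against WT, so the direction for Idi1 was opposite on its 2 probe sets. The mean over both probe sets gave -0.08 and -0.51.

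Ebp, the isomerase that shifts the double bond of the sterol ring, had the largest positive difference in both of these comparisons. Its signal was 7.27, 7.33 and 7.99 on the KLRG1hi arrays, 7.32, 7.59, 6.55, 6.52 and 6.97 on the WT KLRG1lo arrays, 7.61 and 7.93 on the Id2KO arrays, 6.88 and 7.61 on the BimKO arrays and 7.34 and 7.02 on the Id2KOBimKO arrays. Both Id2KO arrays lay above all 5 WT KLRG1lo arrays, by a small margin over WT KLRG1lo array 2, while the KLRG1hi arrays overlapped them. Between Id2KO and WT cells 28.5% of all genes did not overlap. The difference was 0.54 (SE 0.25, interval 0.01 to 1.07, adjusted p = 0.670) for KLRG1hi and 0.78 (SE 0.29, interval 0.18 to 1.39, adjusted p = 0.275) for Id2KO. These differences were 0.08 and 0.32 without the 5 arrays with high H2-Aa signal, and the Id2KO value was 0.14 with array spread as a covariate. Between KLRG1hi and KLRG1lo cells Ebp differed by -0.15 within the first array set and by 1.31 within the second, which holds 1 KLRG1hi array.

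**Figure D2:**
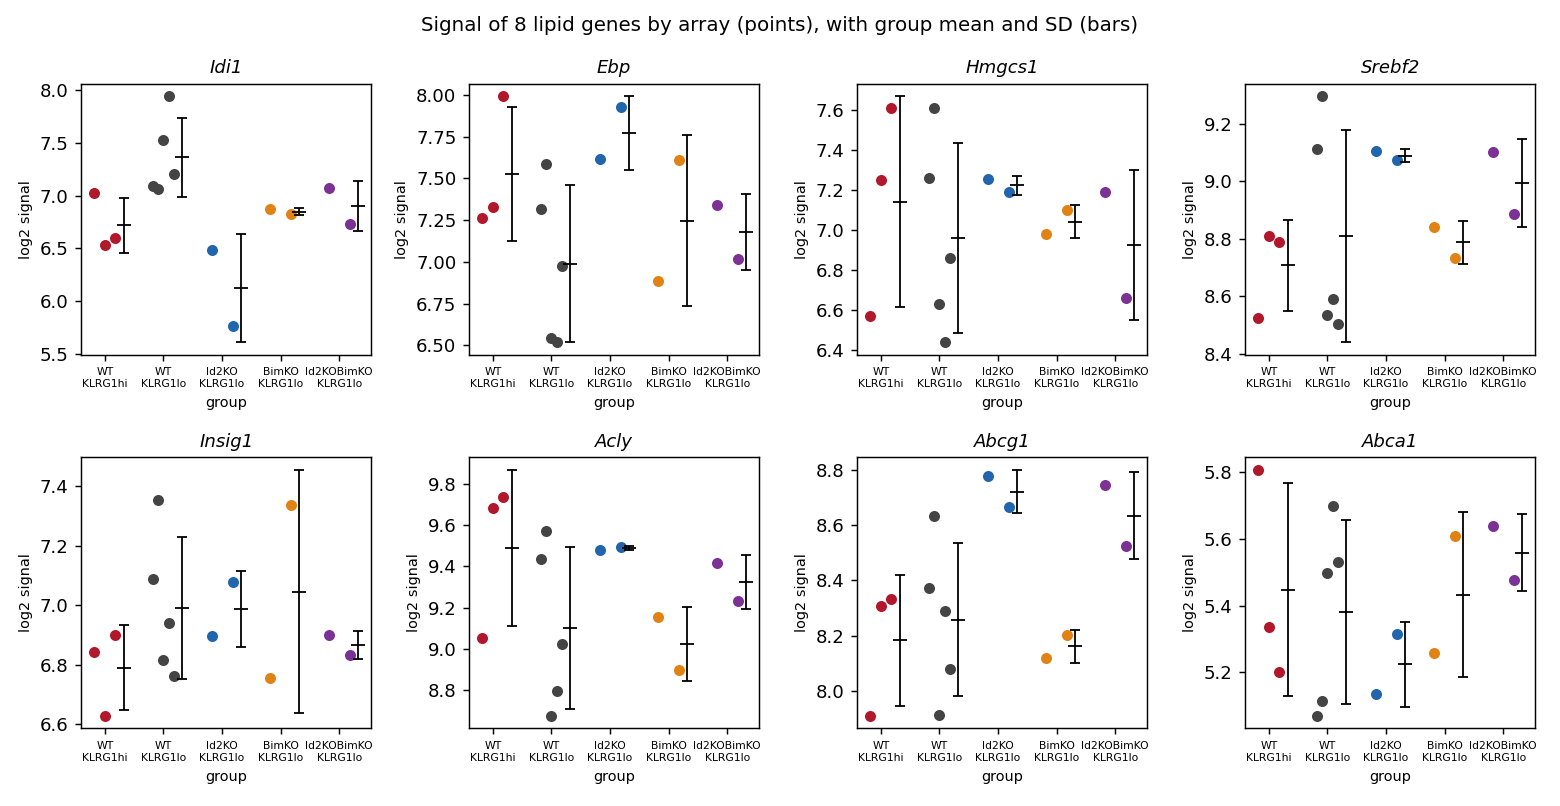
Log2 signal of 8 genes on each array (points) by group, with the group mean and SD to the right of the points (n = 3, 5, 2, 2 and 2). Axes are cut to each gene's range; WT KLRG1lo arrays form a higher and a lower cluster for Ebp, Hmgcs1, Srebf2 and Acly.

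Earlier and later steps of the route gave other values under the threshold. Hmgcs1, whose product joins acetyl-CoA to acetoacetyl-CoA ahead of mevalonate, was at 6.57, 7.25 and 7.61 in KLRG1hi cells. In WT KLRG1lo cells it was at 7.26, 7.61, 6.63, 6.44 and 6.86, so the sorts overlapped over most of their range. The difference was 0.18 (SE 0.25, interval -0.35 to 0.72), and it turned to -0.29 without the 5 arrays with high H2-Aa signal. Fdps, which makes farnesyl diphosphate, was at 6.82 and 6.75 in BimKO cells and at 6.46 and 6.15 in Id2KOBimKO cells. These arrays did not overlap, as for 29.7% of all genes in this comparison. The difference was -0.48 (SE 0.21, interval -0.92 to -0.04, limma adjusted p = 0.9999). In WT KLRG1lo and Id2KO cells Fdps averaged 6.55 ± 0.20 (n = 5) and 6.71 ± 0.14 (n = 2), and the interaction was -0.65 (SE 0.27, adjusted p = 0.726), or -0.36 without the 5 arrays with high H2-Aa signal.

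Fdft1, squalene synthase, was at 6.84 and 6.41 in BimKO cells and 7.12 and 6.91 in Id2KOBimKO cells, a difference of 0.39 (SE 0.28, interval -0.20 to 0.99). A further Fdft1 probe set gave -0.08 (SE 0.36) for the same comparison. Lss, which closes squalene epoxide into lanosterol, was at 5.99 and 5.83 in Id2KO cells and 5.50 and 5.48 in Id2KOBimKO cells. These arrays did not overlap, as for 37.4% of all genes in this comparison, with a difference of -0.42 (SE 0.18, interval -0.81 to -0.03, adjusted p = 0.9998). In WT KLRG1lo cells Lss ranged from 5.62 to 5.94, and Id2KOBimKO cells differed from them by -0.28 (SE 0.15, adjusted p = 0.785). Both Id2KOBimKO arrays were below all 5 WT KLRG1lo arrays for Lss, in a comparison where 12.6% of all genes did not overlap. Its signal was low, at 5.50 and 5.48 on the Id2KOBimKO arrays where the unnamed probe sets had a median of 5.07 and 5.34.

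Sc5d, the desaturase near the end of the route, was at 7.44 and 7.81 in BimKO cells, 7.23 and 7.27 in Id2KOBimKO cells, 7.46 and 7.81 in Id2KO cells and 7.42, 7.45, 6.73, 6.81 and 7.30 in WT KLRG1lo cells. BimKO exceeded WT by 0.48 (SE 0.27, interval -0.09 to 1.05), and the interaction was -0.87 (SE 0.42, adjusted p = 0.726). Mvk, mevalonate kinase, was at 6.60 and 6.30 in BimKO cells against 6.57 to 7.04 in WT KLRG1lo cells, a difference of -0.27 (SE 0.17, interval -0.63 to 0.08). The BimKO arrays overlapped WT for both genes. Without the 5 arrays with high H2-Aa signal the BimKO differences were 0.01 for Sc5d and -0.07 for Mvk, and the Sc5d interaction was -0.41; with array spread as a covariate that interaction was -0.38. The remaining synthesis enzymes each varied over 0.50 to 1.19 log2 units across the 14 arrays, with Pmvk at the low end and Dhcr7 at the high end.

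Among the SREBP factors and their sensors no gene passed, and none had an unadjusted p under 0.05 in any comparison. Srebf2, the isoform that mainly drives cholesterol genes, was at 8.52, 8.81 and 8.79 in KLRG1hi cells and 9.11, 9.30, 8.54, 8.59 and 8.50 in WT KLRG1lo cells. It was at 9.10 and 9.07 in Id2KO, 8.84 and 8.73 in BimKO and 9.10 and 8.89 in Id2KOBimKO cells. WT KLRG1lo arrays 1 and 2 were the highest of all arrays. The difference was -0.10 (SE 0.18, interval -0.48 to 0.28) for KLRG1hi, 0.28 (SE 0.21, interval -0.16 to 0.72) for Id2KO against WT and 0.21 (SE 0.25) for Id2KOBimKO against BimKO, where the 2 arrays of each group did not overlap. In that last comparison 29.7% of all genes did not overlap.

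Srebf1, the isoform tied more to fatty acid genes, was at 7.75, 8.06 and 8.01 in KLRG1hi cells and 8.02, 7.88, 7.63, 7.83 and 7.72 in WT KLRG1lo cells. It was at 8.08 and 8.10 in Id2KO, 7.61 and 7.79 in BimKO and 8.12 and 7.76 in Id2KOBimKO cells. The Id2KO arrays lay just above the WT KLRG1lo arrays, in a comparison where 28.5% of all genes did not overlap. The mean effect of Id2 loss was 0.25 (SE 0.13, interval -0.01 to 0.52, limma adjusted p = 0.620). Under quantile normalization, the Id2KO difference for Srebf1 went from 0.27 to 0.03, and that for Srebf2 from 0.28 to 0.0029. With array spread as a covariate the Id2KO difference for Srebf2 turned to -0.09, and without the 5 arrays with high H2-Aa signal to -0.12, while its KLRG1hi difference there was -0.50. The mean effect for Srebf1 was 0.12 after quantile normalization, 0.14 with the covariate and 0.33 without the 5 arrays with high H2-Aa signal.

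Scap, the escort of the SREBP proteins, was at 7.78, 8.16 and 8.15 in KLRG1hi cells, 8.22, 8.23, 7.93, 7.86 and 8.06 in WT KLRG1lo cells, 8.28 and 8.46 in Id2KO, 8.20 and 8.08 in BimKO and 8.26 and 8.07 in Id2KOBimKO cells. Id2KO exceeded WT without overlap, where 28.5% of all genes did not overlap, by 0.30 (SE 0.17, interval -0.05 to 0.65, adjusted p = 0.285). That difference was 0.05 after quantile normalization, 0.06 with array spread as a covariate and 0.14 without the 5 arrays with high H2-Aa signal. Insig1, which retains SCAP and is itself a target of SREBP, was at 6.84, 6.63 and 6.90 in KLRG1hi cells, 7.09, 7.36, 6.81, 6.94 and 6.76 in WT KLRG1lo cells, 6.90 and 7.08 in Id2KO, 6.76 and 7.34 in BimKO and 6.90 and 6.83 in Id2KOBimKO cells. Its difference was -0.20 (SE 0.17, interval -0.55 to 0.15) for KLRG1hi and -0.01 (SE 0.19, interval -0.41 to 0.40) for Id2KO. All of its groups overlapped with WT KLRG1lo cells. These differences were -0.43 and -0.24 without the 5 arrays with high H2-Aa signal. Insig2 was at 5.89, 6.43 and 7.02 in KLRG1hi cells, 6.53, 6.82, 6.06, 6.33 and 6.80 in WT KLRG1lo cells, 6.79 and 6.998 in Id2KO, 6.41 and 6.91 in BimKO and 6.65 and 6.86 in Id2KOBimKO cells. The KLRG1hi arrays alone spanned its whole range, and the difference from KLRG1lo was -0.06 (SE 0.23, interval -0.54 to 0.42), or -0.22 without the 5 arrays.

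The fatty acid enzymes were mostly higher in Id2KO than in WT cells by point estimate, without passing. Acly, which makes cytosolic acetyl-CoA from citrate, was at 9.05, 9.68 and 9.73 in KLRG1hi cells, 9.44, 9.57, 8.67, 8.80 and 9.02 in WT KLRG1lo cells, 9.48 and 9.50 in Id2KO, 9.15 and 8.90 in BimKO and 9.42 and 9.23 in Id2KOBimKO cells. KLRG1hi exceeded KLRG1lo by 0.39 (SE 0.21, interval -0.05 to 0.83, adjusted p = 0.818). Without the 5 arrays with high H2-Aa signal that difference was -0.015, and within the first and second array sets it was -0.14 and 0.90, the latter from 1 KLRG1hi array. Acaca, the acetyl-CoA carboxylase, exceeded WT in Id2KO cells by 0.42 (SE 0.21, interval -0.03 to 0.86, limma adjusted p = 0.275) and did not overlap with it. In this comparison 28.5% of all genes did not overlap. A further Acaca probe set gave 0.47 (SE 0.22) there. On that probe set the difference was -0.16 for KLRG1hi against KLRG1lo, -0.39 for Id2KOBimKO against BimKO and -0.10 for Id2KOBimKO against WT. The first probe set gave 0.22, 0.07 and 0.34 for these, so the direction was opposite. Fasn, the fatty acid synthase, was at 8.21 and 7.71 in Id2KO cells and between 7.18 and 7.98 in WT KLRG1lo cells, a difference of 0.44 (SE 0.26, interval -0.11 to 0.98). With the spread of each array as a covariate these Id2KO differences were -0.12 for Acly, 0.01 for Acaca and -0.06 for Fasn, and without the 5 arrays -0.02, 0.17 and -0.01.

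The desaturase Scd1 was above the median of the unnamed probe sets on 3 of 14 arrays. It was at 5.28, 5.38 and 5.23 on WT KLRG1lo arrays 3 to 5, at 4.88 and 4.52 on arrays 1 and 2 and at 3.99 and 3.97 in Id2KO cells. At such low signal these values give no level that could be compared. Scd2 ranged from 7.25 to 8.57 and Elovl6, which lengthens fatty acids, from 5.83 to 6.65; neither had an unadjusted p under 0.05 in any comparison.

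The exporter Abcg1 had a positive difference after Id2 loss on both Bim backgrounds. It was at 8.78 and 8.67 in Id2KO and 8.74 and 8.52 in Id2KOBimKO cells, and at 8.37, 8.63, 7.91, 8.29 and 8.08 in WT KLRG1lo, 8.12 and 8.20 in BimKO and 7.91, 8.31 and 8.33 in KLRG1hi cells. Id2KO arrays lay above all WT KLRG1lo arrays, and Id2KOBimKO arrays above both BimKO arrays, while Id2KOBimKO array 2 was below WT KLRG1lo array 2. Of all genes, 28.5% did not overlap between Id2KO and WT and 29.7% between Id2KOBimKO and BimKO. The difference was 0.46 (SE 0.19, interval 0.06 to 0.86, limma adjusted p = 0.275) for Id2KO against WT and 0.47 (SE 0.23, interval -0.01 to 0.95) for Id2KOBimKO against BimKO. The mean of both was 0.47 (SE 0.15, interval 0.16 to 0.78, adjusted p = 0.529). The values against WT and against BimKO were 0.13 and 0.40 with array spread as a covariate, 0.20 and 0.43 after quantile normalization, and 0.22 and 0.62 without the 5 arrays with high H2-Aa signal. They stayed positive in these settings but were not alike.

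Abca1, the other exporter, was at 5.81, 5.33 and 5.20 in KLRG1hi cells, 5.07, 5.12, 5.50, 5.70 and 5.53 in WT KLRG1lo cells, 5.14 and 5.32 in Id2KO, 5.26 and 5.61 in BimKO and 5.64 and 5.48 in Id2KOBimKO cells. Its mean effect of Id2 loss was -0.02 (SE 0.16, interval -0.35 to 0.32), and it was positive, between 0.06 and 0.26, under quantile normalization, with the covariate and without the 5 arrays. Its signal was close to the median of the unnamed probe sets on several arrays. It was at 5.07 against 5.01 on WT KLRG1lo array 1 and 5.32 against 5.27 on Id2KO array 2. The widest margin was 5.81 against 5.05, on WT KLRG1hi array 1. At such low signal these differences say little of its level. Whether the exporters differed from each other was not tested. Stard4, a carrier of sterol between membranes, ranged from 6.31 to 7.30 and differed by -0.11 (SE 0.19) between KLRG1hi and KLRG1lo cells and by 0.15 (SE 0.22) between Id2KO and WT cells, which turned to -0.33 with array spread as a covariate and to -0.11 without the 5 arrays.

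Over all 29 genes, 20 (69%) had a positive difference in Id2KO against WT cells, where 52.2% of all genes did, and 7 (24.1%) had arrays that did not overlap, where 28.5% of all genes did. Of these 7, Abcg1, Acaca, Ebp, Sc5d, Scap and Srebf1 were higher and Idi1 lower; of all genes 14.2% were higher and 14.2% lower in this way. The median was 0.15 against 0.03 over all genes. Its direction depended on the scaling: it was 0.04 after quantile normalization, -0.12 with array spread as a covariate and -0.03 without the 5 arrays with high H2-Aa signal. In Id2KOBimKO against BimKO cells 8 genes did not overlap (background 29.7%), in Id2KOBimKO against Id2KO 11 (background 37.4%), in BimKO against WT 1 (background 12.6%) and in Id2KOBimKO against WT 2 (background 12.6%). These shares lay near or below the background.

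**Figure D3:**
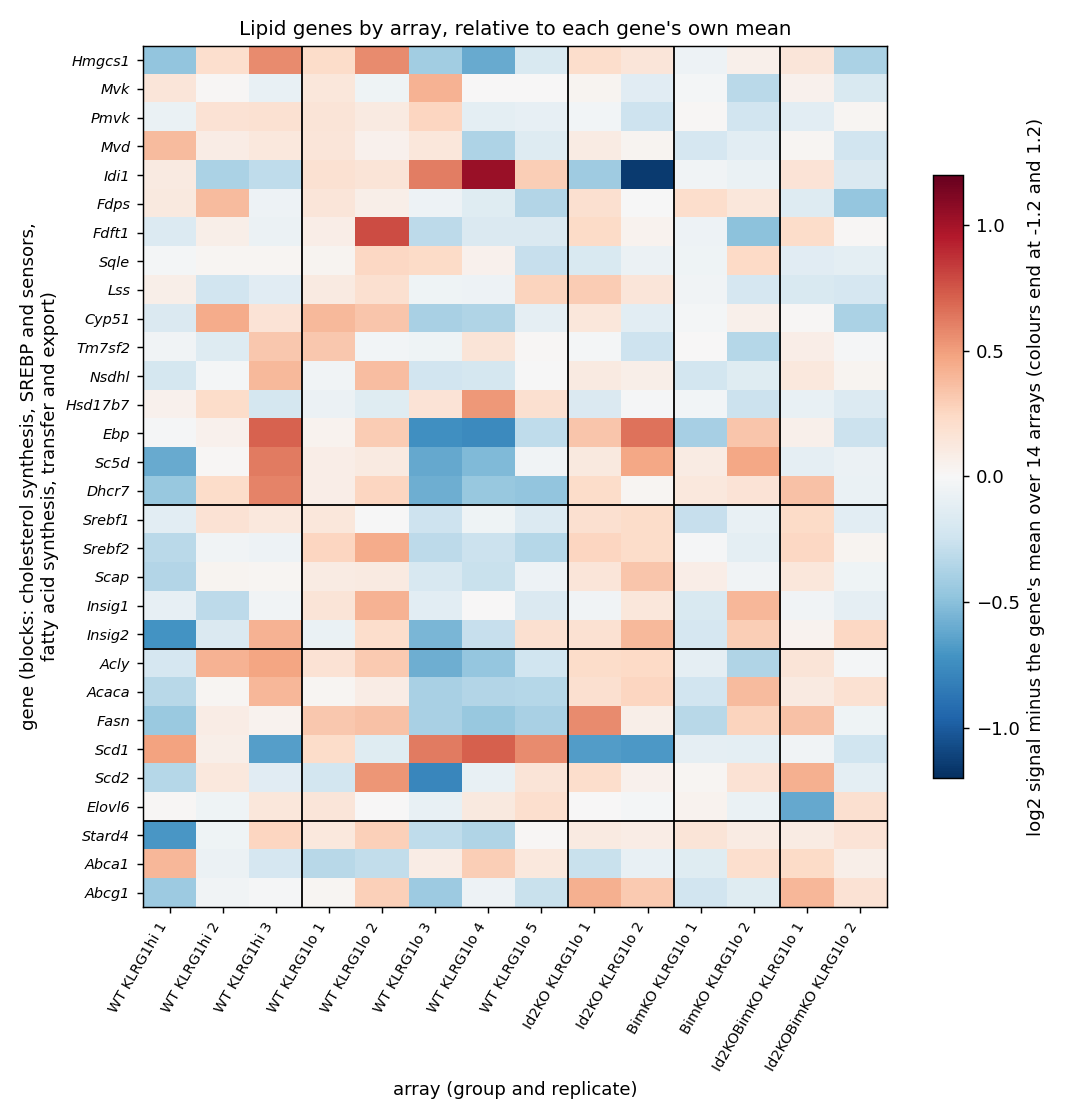
Each of the 30 measured genes on each of the 14 arrays as its log2 signal minus the gene's own mean over the arrays (red higher, blue lower). Many rows are red on WT KLRG1lo arrays 1 and 2 and blue on arrays 3 to 5, while Idi1, Hsd17b7, Scd1 and Abca1 run the other way.

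The largest common pattern lay among arrays of one group. On WT KLRG1lo arrays 1 and 2, 24 of 29 genes were above their own mean over the 14 arrays, and on arrays 3, 4 and 5 the number was 7, 8 and 10. Arrays 1 and 2 were above arrays 3 to 5 without overlap for 16 of the 29 genes, where 26.3% of all genes were, and below them for 3 (Idi1, Hsd17b7 and Abca1), where 17.5% were. The 16 include Hmgcs1, Cyp51, Ebp, Sc5d and Dhcr7 of the sterol route, Srebf1, Srebf2, Scap and Insig1, and Acly, Acaca and Fasn. Abca1, at 5.07 and 5.12 on arrays 1 and 2, was close to the median of the unnamed probe sets there. The mean of arrays 1 and 2 exceeded that of arrays 3 to 5 by 0.79 for Hmgcs1, 0.77 for Ebp, 0.75 for Fasn and 0.66 for Srebf2. Arrays 3 to 5 are those with the high H2-Aa signal, and they also lie in the second array set and have narrower distributions of signal. These properties cannot be told apart within the group, and their part in the pattern was not tested. The shares over all genes were not matched to the signal level of the 29 genes.

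The same order followed the spread of each array, measured as the interquartile range of its log2 signal over all probe sets, which ran from 2.44 to 2.87. In WT KLRG1hi cells, Hmgcs1 was at 6.57 on array 1, with a spread of 2.44, and at 7.61 on array 3, with a spread of 2.84. With group means in the same limma fit, 18 of the 29 genes (62.1%) passed for a dependence on spread, where 51% of all genes did; 16 (55.2%) were higher on arrays of wider spread, where 29.4% of all genes were, and Idi1 and Abca1 were lower, where 21.6% were. The coefficient was 0.29 log2 units per 0.1 of spread for Hmgcs1 (SE 0.03, adjusted p = 8.95e-05), 0.26 for Ebp (SE 0.04), 0.25 for Dhcr7 (SE 0.03), 0.24 for Sc5d (SE 0.04) and 0.20 for Acly (SE 0.04), and it was -0.14 for Idi1 (SE 0.05, adjusted p = 0.0419). Lss, Mvd, Fdps, Pmvk and Sqle had coefficients between 0.0029 and 0.03 that did not pass. Spread was computed from the same arrays, so it is no independent measure, and this test was chosen after the values were seen. The shares over all genes were not matched to the signal level of the 29 genes. The larger share of the 29 is thus not shown to be a trait of lipid genes. Without the 5 arrays with high H2-Aa signal 9 of the 29 genes passed, a smaller share than the 43.2% of all genes, 22 of 29 coefficients were positive, and that of Hmgcs1 was 0.26. Leaving out WT KLRG1lo array 2 left 12 of 29, where 33.8% of all genes passed.

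**Figure D4:**
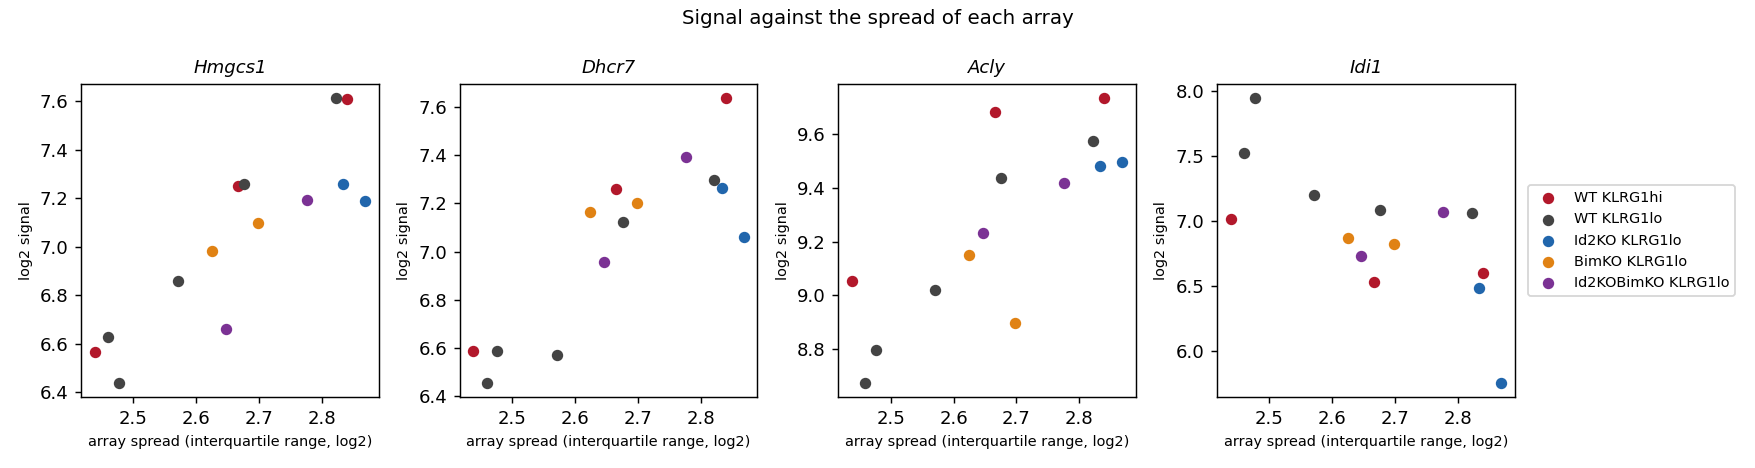
Log2 signal of Hmgcs1, Dhcr7, Acly and Idi1 (vertical axes) against the spread of the array (horizontal axis, interquartile range of log2 signal) for the 14 arrays, coloured by group. Hmgcs1 runs from 6.44 to 7.61, higher on wider arrays within the WT groups, and Idi1 runs downward.

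Neighbouring genes of the pathways, listed apart from the 31, did not pass either. None of 11 tested genes among 15 listed for other steps of sterol handling, none of 21 of 22 for other steps of fatty acid and phospholipid synthesis and none of 5 of 7 LXR factors and targets passed in any of the 8 comparisons. The other sterol genes were higher in Id2KO than in WT cells for 10 of 11 by point estimate, with a median of 0.44 and 5 of 11 at an unadjusted p under 0.05 (limma; 18.1% of all genes), where the 29 lipid genes had a median of 0.15. Their median was 0.19 after quantile normalization, 0.05 with array spread as a covariate and 0.18 without the 5 arrays with high H2-Aa signal. The mean effect of Id2 loss was positive for 11 of 11, with a median of 0.23, and for 7 of 11 with the covariate. Among genes with the smallest p, Acss2, which makes acetyl-CoA from acetate, was at 0.93 (SE 0.23, limma adjusted p = 0.0846) in KLRG1hi against KLRG1lo cells. Npc1, a lysosomal cholesterol transporter, was at 0.69 (SE 0.19, adjusted p = 0.138) there and at 0.82 (SE 0.22, adjusted p = 0.275) in Id2KO against WT cells. Lpin1, a phosphatidate phosphatase, was at 1.00 (SE 0.25, adjusted p = 0.657) in BimKO against WT cells, and Mylip, an LXR target like Abcg1, had a mean effect of Id2 loss of 0.57 (SE 0.15, adjusted p = 0.256). Of 9 tested cell cycle genes, 6 rose in KLRG1hi against KLRG1lo cells (Mki67, Top2a, Ccna2, Cdk1, Kif11 and Stmn1), with a median over the 9 of 0.85. Of all genes 0.679% rose there. After quantile normalization 6 of the 9 rose, and with array spread as a covariate 7 did. Without the 5 arrays with high H2-Aa signal 8 of the 9 differences were positive. In limma 0 of the 9 passed without the 5 arrays with high H2-Aa signal, with a median of 0.67.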

How the data were processed

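The authors deposited single-colour array intensities for 34760 probe sets, normalized by RMA and on a linear scale, per the submitters' processing notes and the values. The notes also name the build mm9. Total RNA was amplified and biotin-labelled, per the labels. Scanner files were not used here. Probe sets with 1 gene symbol (21640), several (1321) or none (11799) were parted; 21553 symbols were updated by Entrez number through RefSeq's GRCm38.p6 table. Log2 values without an offset were taken, with the single-gene probe set of highest mean for each of 19937 genes. The 14438 genes tested had a signal over the 40th percentile in 2 or more of the arrays. Group means were fitted to all 14 arrays in limma 3.58.1 (R 4.3.3; 9 residual and 7.99 prior degrees of freedom), two-sided, with Benjamini-Hochberg adjustment over all genes. The fit was tested on simulated data with independent noise for each gene and array. Such data hold no effect shared by many genes of an array, such as that of array spread.

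Replicate numbers were checked for pairing: 10 of 21 same-numbered pairs had deviations from the group mean correlated above 0.1 (range -0.52 to 0.41). In a group of 2 arrays the deviations mirror each other, so pairs of knockout groups gave the same correlation for both numbers. Differently numbered pairs were not compared. The count therefore cannot decide pairing, and the arrays were not treated as pairs. Within groups, arrays correlated at 0.92 to 0.98 over genes, and no columns were identical. Values by array are given for the 3 genes with the smallest p in each comparison (where fewer than 3 pass) and for Srebf1, Srebf2, Insig1, Insig2, Scap, Abca1 and Abcg1; other lists give their genes of smallest p. Further values were chosen after they were seen. The members and lists were chosen with earlier results of these data known.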

Additional observations from a re-analysis of the deposited data

How the results depend on the processing

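The number of lipid genes passing was 0 in each of 24 alternative settings for 7 of the 8 comparisons, and in 20 of 24 for Id2KO against WT, where Idi1 made it 1 with a robust fit and variance trend. Leaving out single arrays gave 0 to 1 there and 0 in the other group comparisons. With the replicate block the count was 0 in all 8 comparisons, and the genes passing in all went from 136 to 42 for KLRG1hi against KLRG1lo and from 16 to 5 for Id2KO against WT; the replicate numbers are not shown to pair the arrays. For KLRG1hi against KLRG1lo the genes passing ranged from 33 to 376 over the settings, the latter with array spread as a covariate. The ranges were 4 to 39 for Id2KO against WT, 0 to 4 for Id2KOBimKO against BimKO, 3 to 52 for the mean effect of Id2 loss, 0 to 8 for BimKO against WT, 4 to 7 for Id2KOBimKO against Id2KO, 0 to 24 for Id2KOBimKO against WT and 1 to 6 for the interaction. The count for array spread was 9 without the 5 arrays with high H2-Aa signal (43.2% of all genes) and 12 to 19 when single arrays were left out (32.4% to 50.8% of all genes). The exclusion of those 5 arrays, the spread test and the settings tried on the other gene lists were chosen after seeing the data. Of 610 alternative values for 24 single-gene differences, 596 kept their direction and side of the threshold or moved by less than 1 SD. Of the others, 4 passed where the main value did not, 9 moved by more than 1 SD and 1 was classed as reversed. The sign turned in 3, so the classes other than reversed hold sign turns too. The 3 were Acly in KLRG1hi against KLRG1lo, at -0.015 without the 5 arrays and -0.14 within the first array set, and Ebp there, at -0.15 within that set. This tally leaves out the further probe sets, which turned the sign for Idi1 (0.49 for KLRG1hi against KLRG1lo, 0.23 for Id2KO against WT, 0.42 for BimKO against WT, -0.30 for Id2KOBimKO against Id2KO and -0.72 for the interaction) and for Fdft1 (-0.08 for Id2KOBimKO against BimKO). Among differences outside the 24, the further probe sets also turned the sign for Idi1 (-0.49 for Id2KOBimKO against BimKO). They did so for Fdft1 (0.27 for BimKO against WT and -0.41 for the interaction). For Acaca they gave -0.16 for KLRG1hi against KLRG1lo, -0.39 for Id2KOBimKO against BimKO and -0.10 for Id2KOBimKO against WT, each of opposite sign to the first. The cause of these turns was not tested. With 2 arrays in each knockout group, leaving out 1 assumes that the other varies like the remaining groups.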
